A study of Mus musculus with 6 samples.

Results

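The Ly6 genes encode small surface proteins, and 10 of them were followed here in mouse leukaemia cells given extra Ikaros: Ly6g, Ly6d, Ly6f, Ly6e, Ly6h, Ly6i, Ly6k, Ly6a, Ly6c1 and Ly6c2. A probe set, the group of array probes summarised as 1 value, was taken when its platform gene symbol field held one of these names. That gave 9 of 35421 probe sets: 7 belonged to 1 gene each, and 2 were shared by Ly6c1 and Ly6c2 and are given apart. No probe set of the table was paired with Ly6a, which was not analysed here. The family was selected on results of the same 6 arrays, in which the difference of Ly6g between the groups was already known, so the values of the 10 members in that comparison are a description without a test.

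All samples were BCR-ABL1 transformed pre-B cells, a model of acute lymphoblastic leukaemia driven by the BCR-ABL1 fusion kinase, of wild-type genotype from C57Bl6 mice aged 4 weeks. The empty vector group (3 arrays) had been transduced with pMIG, a retroviral vector that carries green fluorescent protein (GFP), and the IKZF1 group (3 arrays) with pMIG-IKZF1, which also carries IKZF1, the gene of Ikaros, a DNA-binding zinc finger regulator of lymphoid development. Sorting for GFP was done on day 3 after transduction, and total RNA of the sorted cells was measured on Affymetrix arrays. The labels name no separate cultures or animals behind the arrays of a group, and do not say which species or isoform the insert is. The p-values therefore cover just the variation among these arrays, and that variation may be technical. In such bulk RNA a change in the share of cells that express a gene cannot be told apart from a change in the RNA per cell.

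Ly6 proteins carry a cysteine-rich fold with 3 finger-like loops, the Ly6/uPAR domain, and most are held on the outer face of the membrane by a glycosylphosphatidylinositol (GPI) lipid anchor. Several are used to sort blood cells: Ly6g on neutrophils, Ly6c on monocytes and some lymphocytes, Ly6a (Sca-1) on stem cells, and Ly6d on lymphoid progenitors committed to the B lineage. Most lie side by side in 1 cluster on chromosome 15, where near copies arose by duplication.

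Promoter sequences are shown first, as those at hand for members of the cluster are much alike. The RefSeq promoter table (build GRCm38.p6; 250 bases before to 50 after a gene start) held 7 windows for 4 of the 10 members. The following window of each is written 5′ to 3′ on the gene's strand: Ly6g at chr15:75155079-75155378 (plus), Ly6f at chr15:75268171-75268470 (plus), Ly6c1 at chr15:75048788-75049087 (minus) and Ly6c2 at chr15:75111922-75112221 (minus). Capitals mark 3 motifs, each searched on both strands of the window. The first is TATAAA, the letters of a core promoter element that places the start of transcription. The second is CCAAT, an upstream promoter element bound by the general factor NF-Y. The third is GGGAA, the core of the sequences that Ikaros recognises, which is printed as its reverse complement where it lies on the opposite strand. The marked matches do not overlap.
Ly6g: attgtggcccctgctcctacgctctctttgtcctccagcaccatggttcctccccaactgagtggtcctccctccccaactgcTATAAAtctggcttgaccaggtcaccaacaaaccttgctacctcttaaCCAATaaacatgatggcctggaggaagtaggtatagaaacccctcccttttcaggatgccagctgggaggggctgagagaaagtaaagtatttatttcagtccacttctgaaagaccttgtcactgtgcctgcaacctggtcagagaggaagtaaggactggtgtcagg
Ly6f: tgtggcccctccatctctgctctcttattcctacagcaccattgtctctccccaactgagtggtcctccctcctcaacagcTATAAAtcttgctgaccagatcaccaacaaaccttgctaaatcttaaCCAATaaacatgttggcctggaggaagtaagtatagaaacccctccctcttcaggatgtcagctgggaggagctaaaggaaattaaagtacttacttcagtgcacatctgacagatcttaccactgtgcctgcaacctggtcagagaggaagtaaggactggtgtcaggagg
Ly6c1: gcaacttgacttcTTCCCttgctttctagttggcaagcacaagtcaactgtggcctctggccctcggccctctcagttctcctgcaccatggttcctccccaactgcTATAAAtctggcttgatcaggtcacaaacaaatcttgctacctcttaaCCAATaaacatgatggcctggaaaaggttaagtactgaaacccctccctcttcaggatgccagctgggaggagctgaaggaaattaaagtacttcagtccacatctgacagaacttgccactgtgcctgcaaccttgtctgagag
Ly6c2: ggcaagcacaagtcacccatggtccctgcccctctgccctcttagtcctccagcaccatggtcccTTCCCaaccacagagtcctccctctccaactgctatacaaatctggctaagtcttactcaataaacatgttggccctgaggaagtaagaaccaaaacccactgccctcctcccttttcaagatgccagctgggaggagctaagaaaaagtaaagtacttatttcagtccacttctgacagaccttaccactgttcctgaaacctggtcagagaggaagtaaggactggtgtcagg

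The printed windows of Ly6g and Ly6f were identical at 263 of 297 aligned bases (88.6%). Those of Ly6g and Ly6c1 matched at 221 of 253 aligned bases (87.4%), and those of Ly6g and Ly6c2 at 234 of 273 (85.7%). The printed windows of Ly6f and Ly6c1 matched at 215 of 250 (86%), and those of Ly6f and Ly6c2 at 229 of 274 (83.6%). Among printed windows, those of Ly6c1 and Ly6c2 were the least alike, at 208 of 266 (78.2%). Ly6f and the other Ly6c1 window matched at 136 of 149 (91.3%), a shorter stretch. TATAAA and CCAAT each occurred once in the printed windows of Ly6g, Ly6f and Ly6c1 and in 13.6% and 37.4% of the 32851 promoters of the table. The other Ly6g window also held each once, while the other Ly6c1 window and both Ly6c2 windows held neither. In the printed windows TATAAA began at base 84 for Ly6g, 82 for Ly6f and 108 for Ly6c1, before CCAAT (132, 129 and 156). In the other Ly6g window it began at base 152. The gene start follows base 250, so none of these lies close to it, and whether TATAAA acts there was not tested. GGGAA was in neither window of Ly6g nor in that of Ly6f, but once in each printed window of Ly6c1 and Ly6c2 and 2 times in each of their other windows, and 62.7% of all promoters held it. These are matches of letters in a 300-base window, and no binding was measured here. Whether the likeness of the promoters bears on the RNA levels below was not tested.

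As a check of the labels, Ikzf1 read 11.85, 11.78 and 11.98 on the log2(intensity + 1) scale in the empty vector arrays and 13.09, 13.14 and 13.06 in the IKZF1 arrays. All 14 measured B-lineage markers, among them Cd79a, Pax5, Ebf1 and Igll1, were above background in both groups. Background was taken from 1194 olfactory and vomeronasal receptor genes, of which 95% of values lay below 6.18. Empty vector 3 and IKZF1 2 stood at opposite ends of the first principal component (47.6% of the variance between arrays), at -48.6 and 45.1, with the other arrays between -18.1 and 13.1. The Ly6 and Jchain values that rest on empty vector 3 are given with and without it. Of 19936 genes tested with limma (Benjamini-Hochberg adjusted p under 0.05), 448 passed, or 2.25%, and 223, or 1.12%, were higher in the IKZF1 group. With replicate number as a block, 1438 passed (7.21%), of which 670 were higher (3.36%).

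Ly6g, the neutrophil antigen, had the largest difference of the family. Its intensity was 49.8, 53.1 and 41.4 in the empty vector arrays and 1336, 1220 and 780.4 in the IKZF1 arrays, or log2 levels of 5.67, 5.76 and 5.40 against 10.38, 10.25 and 9.61. The groups do not overlap: every empty vector array was below the background limit of 6.18, and every IKZF1 array was above it. The difference of the group means was 4.47 ± 0.21 (SE, n = 3 arrays per group), a ratio of 22.2 that rests on a background signal in the denominator. Within arrays of the same number it was 4.72, 4.50 and 4.21, and leaving out single arrays moved it between 4.32 and 4.71.

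The genes that looked most like Ly6g over the 6 arrays were Ms4a1, Hepacam2, Ret, Slfn1 and Cpe. Likeness was the root mean square difference between log2 levels, each gene centred on its empty vector mean, and was 0.37 for Ms4a1, the gene of the B cell antigen CD20, and 0.93, 1.12, 1.18 and 1.24 for the others. Since Ly6g differs so much between the groups, this measure largely follows the size of the same difference. That difference was 4.17, 3.47, 2.90, 2.91 and 2.73 for these genes in the order named, so the list is a description. Hepacam2 read 7.40, 7.96 and 5.76 in the empty vector arrays, a wider spread than that of Ly6g. Ms4a1 read 5.34, 5.25 and 5.43 in the empty vector arrays and 9.55, 9.43 and 9.55 in the IKZF1 arrays. As for Ly6g, all of its empty vector values were below the background limit. Within the IKZF1 group, Ly6g was lowest in IKZF1 3 (9.61), where Ms4a1 (9.55) was level with IKZF1 1.

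The probe set of Ly6f was already bright without added Ikaros. It read 12.09, 12.12 and 12.26 in the empty vector arrays and 13.09, 12.92 and 13.04 in the IKZF1 arrays. Whether the probes of Ly6f, or those of Ly6g, also catch RNA of near copies was not tested. The groups do not overlap and the spread within each is small (SD 0.087 and 0.086). The difference was 0.86 ± 0.08 (SE, n = 3), a ratio of 1.82, and lay between 0.82 and 0.91 with single arrays left out.

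**Figure D1:**
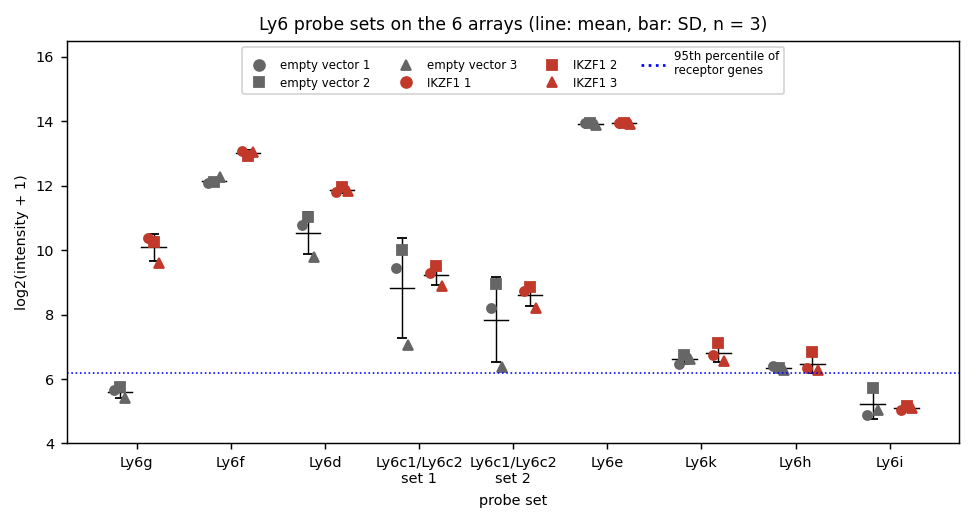
Log2(intensity + 1) of the 9 Ly6 probe sets on the 6 arrays (grey, empty vector; red, IKZF1; marker shape, replicate number), with the group mean as a line and the SD as a bar (n = 3); the dotted line is the background limit of 6.18. Ly6g crosses that line between the groups, Ly6f and Ly6d are higher in all IKZF1 arrays, and the shared Ly6c1/Ly6c2 sets are lowest in empty vector 3.

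Ly6d, an antigen of early B-lineage progenitors, read 10.79, 11.02 and 9.78 in the empty vector arrays and 11.81, 11.96 and 11.82 in the IKZF1 arrays. All IKZF1 values are higher, but the empty vector group is spread widely (SD 0.66 against 0.081), with empty vector 3 as its lowest array (-1.13 relative to the mean of the other empty vector arrays). The difference was 1.33 ± 0.31 (SE, n = 3), a ratio of 2.52. It was 0.96 without empty vector 3, and within arrays of the same number it was 1.02, 0.93 and 2.04.

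The groups overlap for the remaining members with a probe set of their own. Ly6e, an interferon-inducible antigen of thymocytes, was bright and even, at 13.94, 13.95 and 13.87 in the empty vector arrays and 13.94, 13.96 and 13.90 in the IKZF1 arrays. Its difference was 0.01 ± 0.06 (SE, n = 3), the smallest among these 9 probe sets in size, and single arrays left out moved it between -0.01 and 0.03. Ly6k, known from testis, ranged from 6.46 to 6.74 in the empty vector arrays and from 6.55 to 7.12 in the IKZF1 arrays (difference 0.20 ± 0.16). Ly6h, known from brain, ranged from 6.28 to 6.41 and from 6.27 to 6.83 (0.14 ± 0.15), and its sign turned without IKZF1 2 (-0.04). Ly6i, a close relative of Ly6c, ranged from 4.88 to 5.73 and from 5.04 to 5.18 (-0.11 ± 0.21), below the background limit on all 6 arrays, and its sign turned without empty vector 2 (0.15). Probe sets as dim as those of Ly6k, Ly6h and Ly6i hold much background, so that a change of such a gene may be understated.

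Of the 7 members with their own probe set, 2 passed the threshold (Ly6g and Ly6f, both higher), against 1.12% of all genes, and 3 passed with the block (Ly6d besides), against 3.36%. The count was 1 without empty vector 1 or without IKZF1 1, and 3 without empty vector 3. The groups did not overlap for 3 of 7, where 15.2% of all genes had every IKZF1 array above every empty vector array. These counts describe genes chosen with the comparison known, and nothing is read from them. The median difference was 0.20 over the 7, against 0.03 over all genes.

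**Figure D2:**
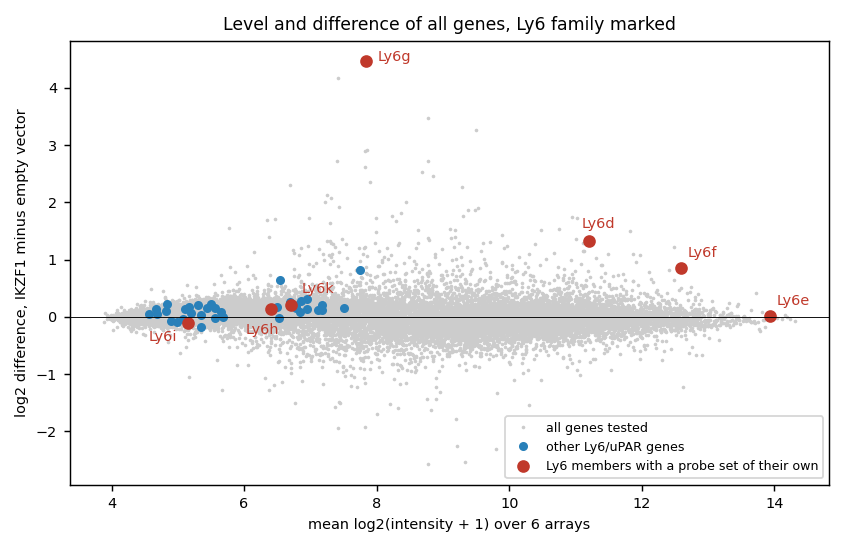
Mean log2(intensity + 1) over the 6 arrays (horizontal) against the log2 difference, IKZF1 minus empty vector (vertical), for the 19936 genes tested (grey), 37 other Ly6/uPAR genes (blue) and the 7 Ly6 members with their own probe set (red). Ly6g lies at 4.47, Ly6d at 1.33 and Ly6f at 0.86, while Ly6e, Ly6k, Ly6h and Ly6i lie between -0.11 and 0.20.

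Ly6c1 and Ly6c2 encode the Ly6C antigens of monocytes, plasma cells and some T cells, and the array could not separate them. The first shared probe set read 9.43, 9.99 and 7.06 in the empty vector arrays and 9.29, 9.51 and 8.90 in the IKZF1 arrays. The second read 8.20, 8.95 and 6.37 and then 8.73, 8.87 and 8.20. The groups overlap in both, and the spread lies almost wholly in the empty vector group (SD 1.56 and 1.33, against 0.31 and 0.35 in the IKZF1 group).

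Relative to the mean of the other empty vector arrays, empty vector 3 was at -2.65 and -2.20 in these 2 probe sets. A lower shift of that array was found in 0.189% and 0.282% of all probe sets. The difference between groups was 0.41 ± 0.74 for the first set and 0.76 ± 0.64 for the second (SE, n = 3). Without empty vector 3 it was -0.48 and 0.03, so the sign of the first turned and the second came close to 0. Over the family, empty vector 3 was the lowest empty vector array in 4 of 7 own probe sets and in both shared ones, against 35.6% of all probe sets.

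Genes of plasma cells, which also carry Ly6C, were examined beside it. Jchain, which encodes the joining chain of secreted antibodies, was also lowest in empty vector 3, at 6.90 against 9.20 and 9.56, and read 10.61, 10.38 and 10.29 in the IKZF1 arrays. Its difference was 1.87 ± 0.66 (SE, n = 3; limma, adjusted p = 0.21), and over the alternatives the adjusted p lay between 0.014 and 0.416. Without empty vector 3 the difference was 1.05, and without any other single array it lay between 1.78 and 2.38. Prdm1, the plasma cell regulator Blimp-1, had 1.17 ± 0.31 (adjusted p = 0.12, between 0.0043 with the block and 0.379 over the alternatives) and was highest of its group, not lowest, in empty vector 3 (6.67). Creld2, a chaperone gene of secretory cells, had -0.12 (adjusted p = 0.42). In limma none of the 9 plasma cell genes passed (0 of 9, against 2.25% of all genes), and 2 had an unadjusted p under 0.05. Their mean level was 8.95 to 9.06 in the empty vector arrays and 9.19 to 9.37 in the IKZF1 arrays. The median difference was -0.01, with 4 of 9 above 0, and Jchain and Prdm1 had the largest differences, while Xbp1 (-0.32) and Irf4 (-0.21), both regulators of plasma cells and named after their values were seen, lay below 0. Low values in empty vector 3 also occurred outside this list. Lat, a T and NK cell marker, read 10.08, 10.37 and 7.34 in the empty vector arrays. Izumo1r, the gene of a GPI-anchored leukocyte protein, read 10.3, 10.7 and 7.8. Within the list Xbp1 was lowest in that array too, while Sdc1, Irf4, Mzb1, Creld2 and Tnfrsf17 were highest in it. Lat, Izumo1r, Sdc1, Mzb1 and Tnfrsf17 are named after their values were seen. The part of any of these genes in the Ly6c values was not tested.

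**Figure D3:**
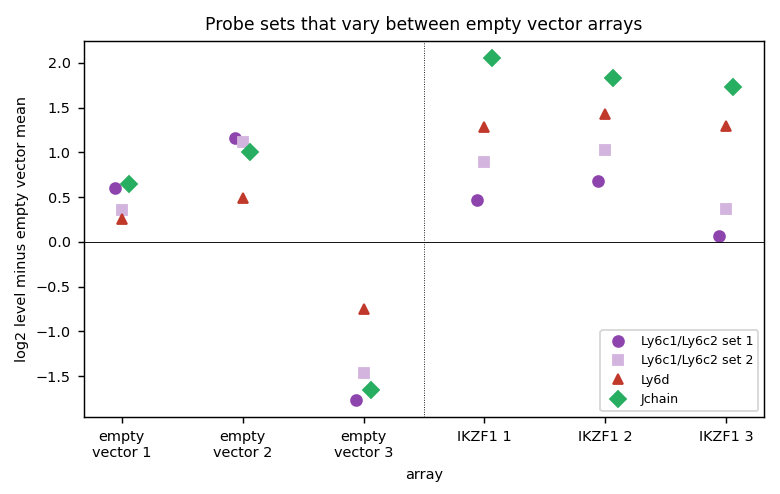
Log2 level of both shared Ly6c1/Ly6c2 probe sets, Ly6d and Jchain on each array, as the difference from the gene's own empty vector mean. Empty vector 3 is the lowest array for all 4. In both Ly6c sets empty vector 2 lies above every IKZF1 array, and without empty vector 3 the group differences are -0.48 and 0.03.

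Whether cells other than B-lineage cells moved along with Ly6g was read from marker lists. Over all genes the share past the threshold was 2.25%, or 7.21% with the block, and the median difference 0.03. At such a share, a count of 0 in lists this short does not set them apart from other genes. The limma count was 0 of 20 granulocyte markers (2 at an unadjusted p under 0.05), with a median difference of 0.04. Their mean level was 5.64 to 5.72 in the empty vector arrays and 5.68 to 5.81 in the IKZF1 arrays, and 5 of 20 were above background in each group; their part in the Ly6g values was not tested further. The neutrophil genes S100a8 (4.95 and 5.04), Ngp (5.22 and 5.26), Ltf (5.04 and 5.06) and Elane (5.96 and 5.85) were below background in both groups (empty vector and IKZF1 means). The 5 above it in both groups were Gfi1 (7.27 and 7.22), Camp (6.75 and 6.68), Prtn3 (6.70 and 6.64), Cebpe (6.48 and 6.47) and Fcnb (6.33 and 6.52). The smallest p belonged to Padi4 (0.19, adjusted p = 0.16), Mmp9 (0.20, adjusted p = 0.23) and Fcnb (0.19, adjusted p = 0.31).

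Other cell types were read in the same way. In limma, 0 of 11 monocyte and macrophage, 0 of 11 T and NK cell, 0 of 7 plasmacytoid dendritic cell, 0 of 10 stem cell and 0 of 8 endothelial markers passed, and 2, 1, 2, 1 and 2 had an unadjusted p under 0.05. With the block 2 of 7 plasmacytoid dendritic cell markers passed, against 7.21% of all genes. They were Tlr9 (0.80, limma adjusted p = 0.13, between 0.028 and 0.334 over the alternatives) and Cox6a2 (-0.74, adjusted p = 0.16, between 0.024 and 0.414). Ccr9 of the same list had 0.04 (adjusted p = 0.81). Other genes of smallest p were Lyz2 (-0.47), Cx3cr1 (0.21) and Mpeg1 (0.21) of macrophages, Cd3e (0.39), Cd8a (0.22) and Cd3d (0.18) of T cells, Cd34 (0.23), Mecom (0.16) and Tek (0.11) of stem cells, and Pecam1 (0.36), Egfl7 (-0.20) and Cdh5 (-0.08) of endothelium. Their adjusted p lay between 0.16 and 0.65. For the 14 B-lineage markers the limma count was 0, with 4 at an unadjusted p under 0.05. Those of smallest p were Vpreb2 (-0.38, adjusted p = 0.11), Cd79b (0.23, adjusted p = 0.16) and Igll1 (-0.21, adjusted p = 0.17). Vpreb2 passed with the block, and its adjusted p lay between 0.029 and 0.353 over the alternatives.

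The wider Ly6/uPAR family, which was not among the members, could be tested. Of 43 genes named, 37 had a probe set of their own; in limma the count past the threshold was 0, against 2.25% of all genes, and 5 were under an unadjusted p of 0.05. Of the 37, 30 had a difference above 0 (median 0.14). The olfactory and vomeronasal receptor genes, which serve as background, also lay above 0 in 71.9% of cases (median 0.05), as did 59.2% of all genes, and 17 of the 37 were above background. Plaur, the urokinase receptor, for which the domain is also named, came nearest: it read 6.23, 6.30 and 6.15 in the empty vector arrays and 6.71, 7.12 and 6.78 in the IKZF1 arrays. Its difference was 0.64 ± 0.12 (SE, n = 3; limma, adjusted p = 0.0502), and over the alternatives the adjusted p lay between 0.013 and 0.215. Slurp2 (0.26), Lypd5 (0.28) and Acrv1 (0.22) followed, with adjusted p between 0.14 and 0.16. With the replicate block 3 of 37 passed, all higher, against 7.21% of all genes in either direction and 3.36% higher. They were Plaur, Lynx1 (0.82 ± 0.57, limma adjusted p = 0.48 without the block) and Ly6g6e (0.32 ± 0.14, adjusted p = 0.28 without it). The Lynx1 groups overlap (7.37, 6.32 and 8.36 against 8.35, 7.35 and 8.80), and its difference depended on single arrays: leaving out empty vector 2 gave 0.30 and empty vector 3 gave 1.32, and leaving out IKZF1 2 gave 1.23 and IKZF1 3 gave 0.50. Lynx1 and Ly6g6e are named here after their values were seen.

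**Figure D4:**
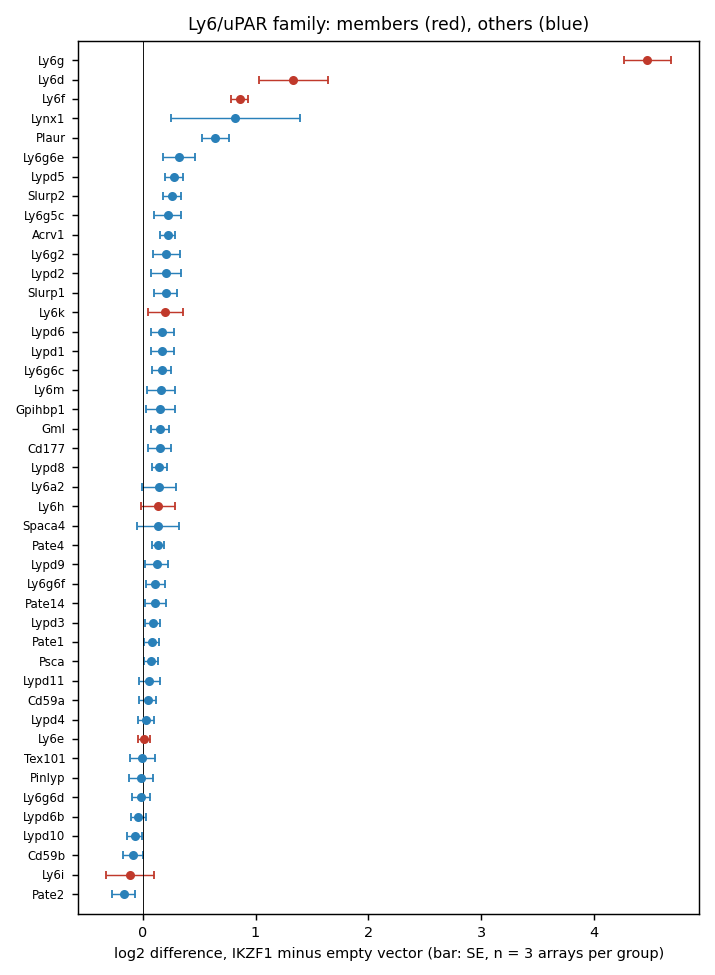
Log2 difference, IKZF1 minus empty vector, with its SE (n = 3 arrays per group) for the 7 Ly6 members with their own probe set (red) and 37 other Ly6/uPAR genes (blue), ordered by size. Ly6g, Ly6d and Ly6f lie at the top, at 4.47, 1.33 and 0.86, and Plaur (0.64) and Lynx1 (0.82) are the next highest.

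In RefSeq gene order, 22 protein-coding genes run from Ly6d to Ly6h on chromosome 15, and Ly6g lies between Ly6a2 and Ly6g2. These neighbours are named for their position. Ly6a2 read 5.08, 5.06 and 4.98 in the empty vector arrays and 4.91, 5.51 and 5.13 in the IKZF1 arrays, and Ly6g2 read 5.24, 5.33 and 5.05 and then 5.24, 5.60 and 5.41. Both probe sets stayed below the background limit on all 6 arrays, with differences of 0.14 ± 0.15 and 0.21 ± 0.12 (SE, n = 3; limma, adjusted p = 0.63 and 0.39). The promoter of Ly6a2 was identical to the printed window of Ly6c2 at 290 of 295 aligned bases (98.3%) and to that of Ly6g at 230 of 268 (85.8%).

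Across the genes between the members and the 10 protein-coding genes beyond either end, 27 were measured. Several of them, Slurp2 and Lynx1 included, also belong to the wider family above, so the lists are not independent. The limma count past the threshold was 0, against 2.25% of all genes, with 4 under an unadjusted p of 0.05 (median difference 0.15). Jrk (0.32), Slurp2 (0.26), 9030619P08Rik (0.78) and Cyp11b2, the aldosterone synthase gene (0.31), had the smallest p, with adjusted p between 0.14 and 0.23. With the block 2 of 27 passed, against 7.21% of all genes: Lynx1 and 9030619P08Rik (limma, adjusted p between 0.049 and 0.414 over the alternatives). 9030619P08Rik, a transcribed pseudogene in RefSeq that lies between the members, read 8.26, 8.74 and 7.72 in the empty vector arrays and 9.08, 9.07 and 8.92 in the IKZF1 arrays, so that its groups do not overlap. The bright neighbour Them6 was lowest in empty vector 3 (9.73 against 10.75 and 10.90), as Ly6d and the Ly6c sets were, and is named after its values were seen.

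Ly6 proteins need a GPI anchor, which is built in the endoplasmic reticulum by the Pig enzymes. Of 29 genes of anchor synthesis and remodelling, 1 rose, 1 fell and 27 did not pass, with a median difference of -0.09. For this list and those below, the share over all genes was 2.25%, or 7.21% with the block, and the median 0.03. Pigz, a mannosyltransferase of the pathway, rose by 1.10 ± 0.18 (SE; limma, adjusted p = 0.036). Pigp, a subunit of the enzyme of the first step, fell by 0.42 ± 0.07 (adjusted p = 0.035). Pigl, the deacetylase of the next step, had -0.41 (adjusted p = 0.059, between 0.022 and 0.254 over the alternatives) and passed with the block (adjusted p = 0.026), where 2 were higher and 3 lower.

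Of 16 GPI-anchored leukocyte proteins outside the family, 1 fell and 15 did not pass (median -0.02). Prnp, the prion protein gene, read 10.59, 10.87 and 10.39 in the empty vector arrays and 9.50, 9.56 and 9.48 in the IKZF1 arrays. It fell by 1.11 ± 0.12 (SE, n = 3; limma, adjusted p = 0.014). Sema7a (-0.70, adjusted p = 0.059) and Nt5e, the ectonucleotidase CD73 (-0.82, adjusted p = 0.13), passed with the block, where 3 were lower. Over the alternatives their adjusted p lay between 0.0042 and 0.246 and between 0.0041 and 0.396.

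Ly6G associates with beta2 integrins on neutrophils. Of the 4 integrin genes, Itgal fell by 1.59 ± 0.14 (SE, limma, adjusted p = 0.0069). Itgam (0.12), Itgax (-0.04) and Itgb2 did not pass (limma, adjusted p between 0.54 and 0.80). The means of Itgam and Itgax were below background in both groups. Of 22 interferon-stimulated genes, a class to which Ly6e belongs, 2 rose and 20 did not pass (median 0.52). Ifit3 read 5.61, 5.65 and 5.24 in the empty vector arrays and 7.62, 7.20 and 6.74 in the IKZF1 arrays (limma, adjusted p = 0.024), and Ifit1 had a difference of 0.78 (adjusted p = 0.029). Rsad2 had 0.68 (adjusted p = 0.0502, between 0.011 and 0.184 over the alternatives), and with the block 9 were higher and 1 lower. Ifit3, Ifit1 and Rsad2 were below background in the empty vector group. Ifit1 read 6.10, 6.49 and 6.16 in the IKZF1 arrays, so that it stayed below the background limit in IKZF1 1 and IKZF1 3. Ifit3 and Rsad2 were above that limit in every IKZF1 array. The genes named as rising or falling in the anchor, GPI, integrin and interferon lists, 6 in all, were all lost without empty vector 1 or without IKZF1 1, and 2, 1 and 3 of them passed without IKZF1 3, IKZF1 2 and empty vector 2.

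**Figure D5:**
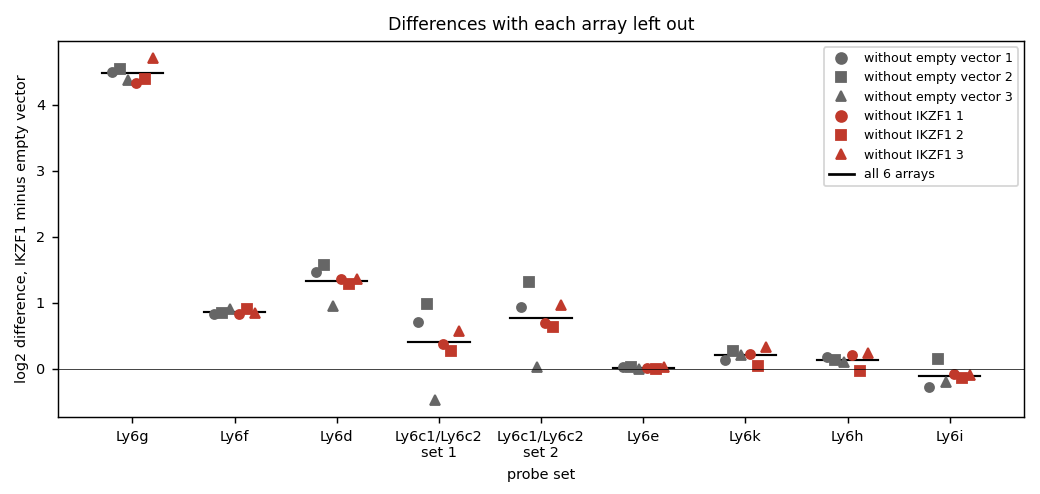
Log2 difference, IKZF1 minus empty vector, of the 9 Ly6 probe sets with all 6 arrays (black line) and with each array left out (points, coloured by the group of the array left out). Ly6g stays between 4.32 and 4.71 and Ly6f between 0.82 and 0.91, while the shared Ly6c1/Ly6c2 sets drop to -0.48 and 0.03 without empty vector 3.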

How the data were processed

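The authors deposited 1 intensity per probe set and array, normalized with RMA (robust multi-array average), per the submitters' processing notes, which name no version. That the intensities are linear, not logarithms, was read from the values. From them log2(intensity + 1) was computed. Probe sets were named from the platform's gene table, with symbols updated through RefSeq gene numbers, and the brightest probe set stood for each of 19936 genes. The IKZF1 and empty vector arrays were compared in R 4.3.3 with the package limma 3.58.1 (lmFit, then eBayes; group as the only term, 2-sided, Benjamini-Hochberg adjustment). SEs of the shared Ly6c probe sets come from the fit over 35421 probe sets. An exact permutation test of 3 arrays against 3 cannot go below p = 0.1. The fit was tested on simulated data.

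The members and gene lists were chosen with earlier results of these data known. Named genes other than the members were those past the threshold by size and then those of smallest p, up to 3 a list, or up to 8 and 4 for the wider family and the neighbours, and the 5 genes nearest to Ly6g, leaving out members, unnamed gene models, small RNAs, olfactory and vomeronasal receptors and antigen receptor segments. Ikzf1, defining markers and genes said to be so were named besides. Of the entries of the lists, those without a probe set of 1 symbol were not analysed here. Arrays of the same replicate number deviated together from their group means across genes (r = 0.24, 0.60 and 0.66, other pairs -0.68 to 0.11), so the replicate block is given where it changes a call or a count. No 2 arrays held the same values. The number of arrays limits the precision.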

Additional observations from a re-analysis of the deposited data

How the results depend on the processing

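Over the alternatives the log2 difference lay between 4.11 and 4.71 for Ly6g, 0.82 and 0.92 for Ly6f, and 0.96 and 1.58 for Ly6d. Several settings, such as the block and the priors, leave a difference as it is and can change only its SE. With single arrays left out, the shared Ly6c sets lay between -0.48 and 0.99 and between 0.03 and 1.32. Ly6g, Ly6f and Ly6d kept their direction in all 16 alternatives. As their groups do not overlap, leaving out a single array cannot turn the sign, so this adds no support. The 2 members past the threshold became 1 to 3 with single arrays left out. The replicate block gave 1438 genes in place of 448, 3 of 37 wider family genes and 2 of 27 neighbours in place of 0, and 23 of 160 genes of the 12 other lists in place of 6. Array weights gave 1481, 1, 1 and 17. Of the wider family 1 gene, Plaur, also passed with a mean log2 level of at least 6, the mean of probe sets, a robust prior, centred arrays and quantile normalization. With single arrays left out, 24 (without IKZF1 1) to 947 genes passed (without empty vector 3), 0 to 1 neighbours (Jrk, without empty vector 3) and 0 to 20 genes of the other lists. The cause of these shifts was not tested. Dim probe sets limit what can be said of Ly6i, Ly6h and Ly6k, whose signal lies near or below that of receptor genes.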
